A study of Homo sapiens with 118 samples.

Results

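Differentiated HepaRG cells exposed to panobinostat were compared between the highest and the lowest of its 5 concentrations, over every probe of a whole-transcriptome panel. The comparison used 6 of the 118 libraries of the series, 3 at 0.084 µM (called C5) and 3 at 0.001468 µM (called C1). They were chosen by the chemical and concentration given in the sample labels. Earlier results of these data were known when the comparison was chosen. All 6 libraries came from cells of the same established line, which was derived from a human liver tumour and differentiated before use. Both groups were exposed for 72 h with daily renewal of the chemical, and the C1 cells therefore also carried panobinostat. All 118 libraries are labelled with an inhibitor and a concentration, none as a solvent control, so changes present at both concentrations could not be measured. The labels name 3 batches of HepaRG cells, and each batch gave 1 library to each group. The series profiled 8 histone deacetylase inhibitors in these cells with TempO-Seq, which counts ligated pairs of detector probes and so gives 1 value per probe, called a feature here.

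Histone deacetylases remove acetyl groups from lysines of histones and of other proteins, and acetylated chromatin is generally open to transcription. Panobinostat is a hydroxamate that binds the zinc ion in the active site of these enzymes and acts on many of them. HepaRG cells, once differentiated, resemble hepatocytes and bile duct cells, and they are used for studies of liver metabolism because they express many drug-metabolising enzymes.

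Total counts of the 6 libraries ran from 3190600 to 4912102, with a mean of 4333016 at C1 and 3700356 at C5, and 12637 to 13221 features per library had at least 5 counts. Precision was limited by 3 libraries per group and, for features of few reads, by counting error. Levels are given as CPM, read counts relative to the library total, scaled for library composition. They describe 1 probe across libraries and are not compared between genes. Probes for the secreted proteins of hepatocytes had many reads at C1 and summed to 75865 to 93208 CPM. Such sums depend on the probes of a list and do not give shares of cell types. The list of bile duct and progenitor markers summed to 273 to 318 CPM and was uneven. ANXA4, SOX9 and the 2 probes for KRT19 had mean counts of 829, 105, 132 and 50.3 at C1, while EPCAM, a marker of bile duct and progenitor cells, was at 0 counts in all 6 libraries and 2 probes for the bile duct keratin KRT7 had mean counts of 1 and 3.33 at C1. Of 16 probes for immune cell markers, 11 were at 0 at C1, PTPRC among them.

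Many liver genes fell at C5, and a more mixed set of genes rose. Of 13104 features tested, 2127 (16.2%) were called, with 887 higher (6.77%) and 1240 lower (9.46%) at C5. A call required an adjusted p under 0.05 in edgeR's quasi-likelihood test and a fold change of at least 1.5. The median change was 1.07 on the log2 scale among the features called higher and -1.25 among those called lower, with features at the detection floor set to their bound. Features called lower held 24.7% to 26.6% of the reads at C1 and 11.4% to 12.3% at C5. Features called higher held 7.01% to 7.27% at C1 and 14.0% to 14.7% at C5. Among the 100 most abundant features at C1, 48 were called lower and 6 higher, and their median log2 change was -0.55, against -0.0018 over all features tested. The direction was the same in all 3 batches for 2123 of the 2127 called features. Their C1 and C5 values did not overlap for 2115, against 42.0% of all features tested. Both counts follow largely from the call, which was made on the same libraries, and are not further support. The share of all features with the same direction in the 3 batches was not computed. Without the libraries of batch 1 the numbers called were 338 higher and 594 lower, and without batch 3 they were 351 and 662. In a model of the 6 libraries alone, 1336 features were called higher and 1483 lower.

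**Figure D1:**
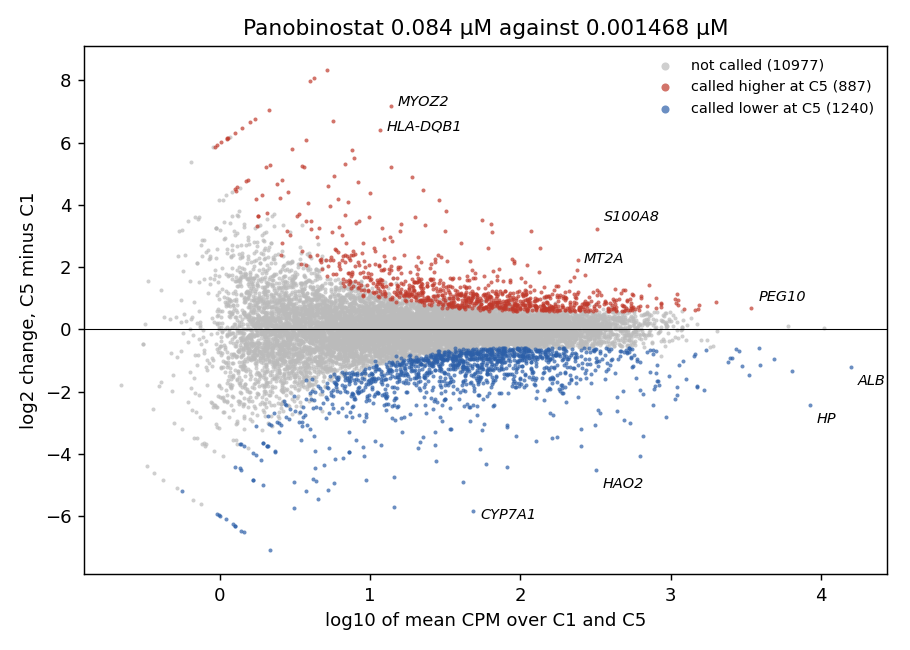
Each point is 1 of the 13104 features tested, with the log10 of its mean CPM over C1 and C5 on the x axis and its fitted log2 change from C1 to C5 on the y axis. Red points are the 887 features called higher and blue points the 1240 called lower, and the abundant liver genes ALB and HP lie among the latter.

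Bile acid genes fell in part. CYP7A1, the rate-limiting enzyme of bile acid synthesis, had 95.4, 118 and 72.6 CPM at C1 and 3.27, 1.4 and 0.266 CPM at C5. The groups were far apart and each concentration step from C1 on had a lower mean than the one before (log2 change -5.85, SE 0.51, edgeR adjusted p = 5.45e-08). In the list of bile acid synthesis and transport, 11 of 24 features tested were called lower and 1 higher. The share called was 50.0%, against 16.2% of all features, and the median log2 change was -0.95. BAAT, which joins bile acids to glycine or taurine, had 1479, 1207 and 1196 CPM at C1 and 295, 213 and 212 CPM at C5 (log2 change -2.43, SE 0.20, edgeR adjusted p = 3.72e-08). The uptake carriers SLCO2B1 (log2 change -3.50, SE 0.29, edgeR adjusted p = 3.72e-08) and SLCO1B1 (log2 change -2.47, SE 0.27, edgeR adjusted p = 1.16e-06) fell in all 3 batches. Export carriers differed. Both probes for ABCC2 were called lower, at -1.61 and -1.58, as were 2 of 3 for ABCC3, at -0.94 and -0.69. The 4 probes for ABCB11, the bile salt export pump, were not called, at -0.38, -0.35, -1.18 and -1.47. Their mean counts at C1 were 14.3, 7.67, 12.3 and 3.33, so a fall like that of ABCC2 could have been missed. ABCB4 (-0.70, mean count 11.7 at C1) and the 2 probes for ABCC4 (0.03 and 0.45) were not called either. AKR1D1, a steroid reductase of the same pathway, was the feature called higher, with 23.7, 5.43 and 6.23 CPM at C1 and 25.6, 44.7 and 22.9 CPM at C5, and its groups overlapped (log2 change 1.38, SE 0.48, edgeR adjusted p = 0.0495). Without batch 2 or batch 3 its edgeR adjusted p was 0.395 or 0.151.

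Drug-metabolising enzymes fell in 12 of the 23 tested features of the cytochrome P450 list, and 1 rose. The share called was 56.5%, against 16.2% of all features, and the median log2 change was -1.18. CYP2C19, a drug-oxidising enzyme of the liver, had 11.2, 12.3 and 3.11 CPM at C1 and 0.273, 0 and 0.266 CPM at C5 by the probe that was called, at least 11.5-fold lower (edgeR adjusted p = 1.65e-04). The CYP2C genes are similar in sequence, so reads of 1 may be counted for another. CYP3A4, which oxidises many medicines, had 243, 248 and 227 CPM at C1 and 76.9, 65.3 and 43.6 CPM at C5 (log2 change -1.95, SE 0.21, edgeR adjusted p = 1.05e-06). The exception was CYP1A1, an enzyme known for its induction through the aryl hydrocarbon receptor. It had 4.44, 6.06 and 8.72 CPM at C1 and 55.6, 52 and 61.7 CPM at C5 by 1 probe (log2 change 3.16, SE 0.39, edgeR adjusted p = 6.48e-06). A second CYP1A1 probe of lower count and CYP1A2 did not pass the test, at 2.11 and 1.73.

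The plasma proteins that hepatocytes secrete fell nearly as a whole. Of 23 features tested, 20 were called (87.0%, against 16.2% of all features), all lower, with a median log2 change of -1.21. Their summed level was 75865 to 93208 CPM at C1 and 33730.0 to 43525 CPM at C5, so the groups did not overlap. Since a lysate mixes all cells, fewer cells of a type and less RNA per cell cannot be told apart, here and below. ALB (albumin) had 23289, 22277 and 20724 CPM at C1 and 10962, 9747 and 7937 CPM at C5 (log2 change -1.21, SE 0.15, edgeR adjusted p = 8.92e-06). HP (haptoglobin), which binds free haemoglobin, had 17210.0, 13855 and 11472 CPM at C1 and 3188, 2729.6 and 2060.1 CPM at C5 (log2 change -2.41, SE 0.25, edgeR adjusted p = 5.18e-07). AHSG (fetuin-A), an inhibitor of calcification, had 57.9, 30.7 and 28.3 CPM at C1 and 2.45, 4.92 and 0.798 CPM at C5 and the largest log2 change of the list (log2 change -3.80, SE 0.47, edgeR adjusted p = 6.33e-06). All 3 fell in every batch and did not overlap between groups. The fibrinogen chain genes FGA, FGB and FGG fell by similar amounts, at -1.35, -1.19 and -1.16. SERPINA1 (alpha-1 antitrypsin) was near the limit of the call at -0.60, and was not called in 7 of the 15 alternative analyses. The features that did not pass were TTR (0.12), APOA2 (-1.13) and 1 of 2 probes for APOC3 (-0.85).

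Among the transcription factors that maintain hepatocytes, 8 of 24 features were called lower and 1 higher. The share called was 37.5%, against 16.2% of all features, and the median log2 change was -0.89. HNF4A, a nuclear receptor that drives many liver genes, had 10.1, 21.3 and 14.9 CPM at C1 and 6.82, 1.64 and 5.59 CPM at C5. The C5 values lay below all C1 values, but both groups were spread widely (log2 change -1.74, SE 0.44, edgeR adjusted p = 0.0082). The xenobiotic receptor NR1I2 (PXR) fell by one of its 2 probes (log2 change -1.61, SE 0.44, edgeR adjusted p = 0.0129), the bile acid receptor NR1H4 (FXR) was at -1.33 and CEBPA at -1.42, both called. ONECUT2, a relative of the liver factor ONECUT1, rose, with 4.86, 3.97 and 6.85 CPM at C1 and 22.9, 21.3 and 14.9 CPM at C5 (log2 change 1.93, SE 0.41, edgeR adjusted p = 0.00206). Probes for ONECUT1 itself did not pass the test, at -0.49 and -0.29. Only 3 of the 9 calls of this list were kept when batch 1 was left out, and 3 without batch 2 or batch 3.

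Promoter sequences of RefSeq (GRCh38.p14) were read for the called genes, to show the letters near the starts of genes that moved. The table covered 9412 of the 11771 tested symbols, with 667 of 856 called higher only and 906 of 1171 called lower only. The letters CAAAGTCCA, which occur in HNF4A binding sites, were searched on both strands from 250 bases before to 50 bases after each start. They were found in 13 of the 906 promoters of genes called lower (1.43%), in 4 of 667 called higher (0.6%) and in 0.204% of genes tested but not called, against 0.359% of all promoters. The TATA letters TATAAA were in 9.27% of promoters of genes called lower and 7.8% of those called higher, against 6.08% of those tested and 12.0% of all promoters. Other strings of letters were searched in the same way, and none was more frequent in genes called lower than in those tested. They were in 59.7%, 34.8%, 9.16%, 1.55% and 0% of promoters of genes called lower. The shares in promoters of genes tested were 67.4%, 37.1%, 10.1%, 3.17% and 0.0106%, and in those called higher 64.0%, 40.0%, 9.3%, 3.3% and 0%. These shares are descriptions of the letters, and a match is not a binding site. For 6 of the 13 genes called lower, chosen for known roles in the liver after their values were seen, the match with up to 40 bases on each side is shown 5′ to 3′ on the strand of the gene, and capitals mark CAAAGTCCA or its reverse complement. The windows are AHSG, chr3:186612841-186612929, plus strand; CYP2C8, chr10:95069502-95069590, minus strand; SLC22A10, chr11:63289788-63289876, plus strand; AGXT2, chr5:35047950-35048012, minus strand; HAAO, chr2:42792656-42792744, minus strand; and LEAP2, chr5:132873438-132873526, plus strand.
AHSG: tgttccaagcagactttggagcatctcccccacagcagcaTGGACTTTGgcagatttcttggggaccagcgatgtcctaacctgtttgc
CYP2C8: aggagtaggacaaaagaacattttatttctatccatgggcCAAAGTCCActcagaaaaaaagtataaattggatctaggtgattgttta
SLC22A10: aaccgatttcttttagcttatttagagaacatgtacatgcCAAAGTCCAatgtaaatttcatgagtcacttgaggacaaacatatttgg
AGXT2: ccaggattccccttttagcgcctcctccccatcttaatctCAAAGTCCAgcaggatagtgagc
HAAO: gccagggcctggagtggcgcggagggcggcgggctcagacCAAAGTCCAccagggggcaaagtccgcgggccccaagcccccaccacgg
LEAP2: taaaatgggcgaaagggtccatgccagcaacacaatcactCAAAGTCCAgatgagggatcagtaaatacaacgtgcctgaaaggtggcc
The match began 179 bases before the start in AHSG and 53 bases before it in CYP2C8, where the gene's own level fell from 72.1, 80.9 and 70.7 CPM to 17.5, 11.7 and 13 CPM (log2 change -2.41, SE 0.23, edgeR adjusted p = 1.56e-07). SLC22A10, an organic anion carrier, had 13.1, 14.2 and 13.4 CPM at C1 and 0.273, 0.234 and 2.13 CPM at C5 (log2 change -3.93, SE 0.59, edgeR adjusted p = 5.85e-05). AGXT2, a mitochondrial aminotransferase, had 91.5, 100.3 and 76.9 CPM at C1 and 16.4, 10.5 and 13.6 CPM at C5 (log2 change -2.74, SE 0.26, edgeR adjusted p = 1.33e-07). In each of these genes the C5 libraries lay below all C1 libraries. HAAO, an enzyme of tryptophan breakdown, was at -1.82, and the 2 probes for LEAP2, a secreted peptide of the liver, were at -2.02 and -1.04, all called lower.

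Fat, amino acid and sugar metabolism fell in part. In fatty acid oxidation and ketogenesis 10 of 23 features were called, all lower (median -0.68). CYP4A11, a fatty acid hydroxylase, had 16.5, 10.9 and 10.3 CPM at C1 and 1.09, 0 and 1.06 CPM at C5. All C5 values lay below all C1 values (log2 change -4.12, SE 0.73, edgeR adjusted p = 3.36e-04). The core beta-oxidation genes HADHA and ACADM lay at -0.00 and -0.01 and did not pass the test. In cholesterol synthesis 13 of 28 features were called, all of them lower (median -0.84), among them HMGCS1, an early enzyme of the pathway, at -1.34 and INSIG1 (log2 change -1.56, SE 0.21, edgeR adjusted p = 2.09e-05). The urea cycle and amino acid list had 10 of 20 called, all of them lower (median -0.89), of which 5 were kept without batch 1, 8 without batch 2 and 3 without batch 3. ARG1 (arginase) had 92, 85.3 and 53.6 CPM at C1 and 16.9, 12.2 and 12.2 CPM at C5 (log2 change -2.49, SE 0.29, edgeR adjusted p = 2.70e-06). In gluconeogenesis and glycogen 5 of 12 were called, all of them lower (median -0.80), among them G6PC, which releases free glucose (log2 change -1.72, SE 0.43, edgeR adjusted p = 0.007). Over the 8 liver lists together, 177 features were tested, and 89 were lower, 3 higher and 85 not called, with a median of -0.93. Left-out batches also moved the other lists of this paragraph. Of the 10 calls in fatty acid oxidation 6 were kept without batch 1, 10 without batch 2 and 7 without batch 3. Of the 13 in cholesterol synthesis 10 were kept without batch 1, 13 without batch 2 and 8 without batch 3, and of the 5 in gluconeogenesis 3 were kept without batch 1, 4 without batch 2 and 4 without batch 3. The shares called lower exceeded the 9.46% of all features, and the lists were chosen with the behaviour of these cells known.

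**Figure D2:**
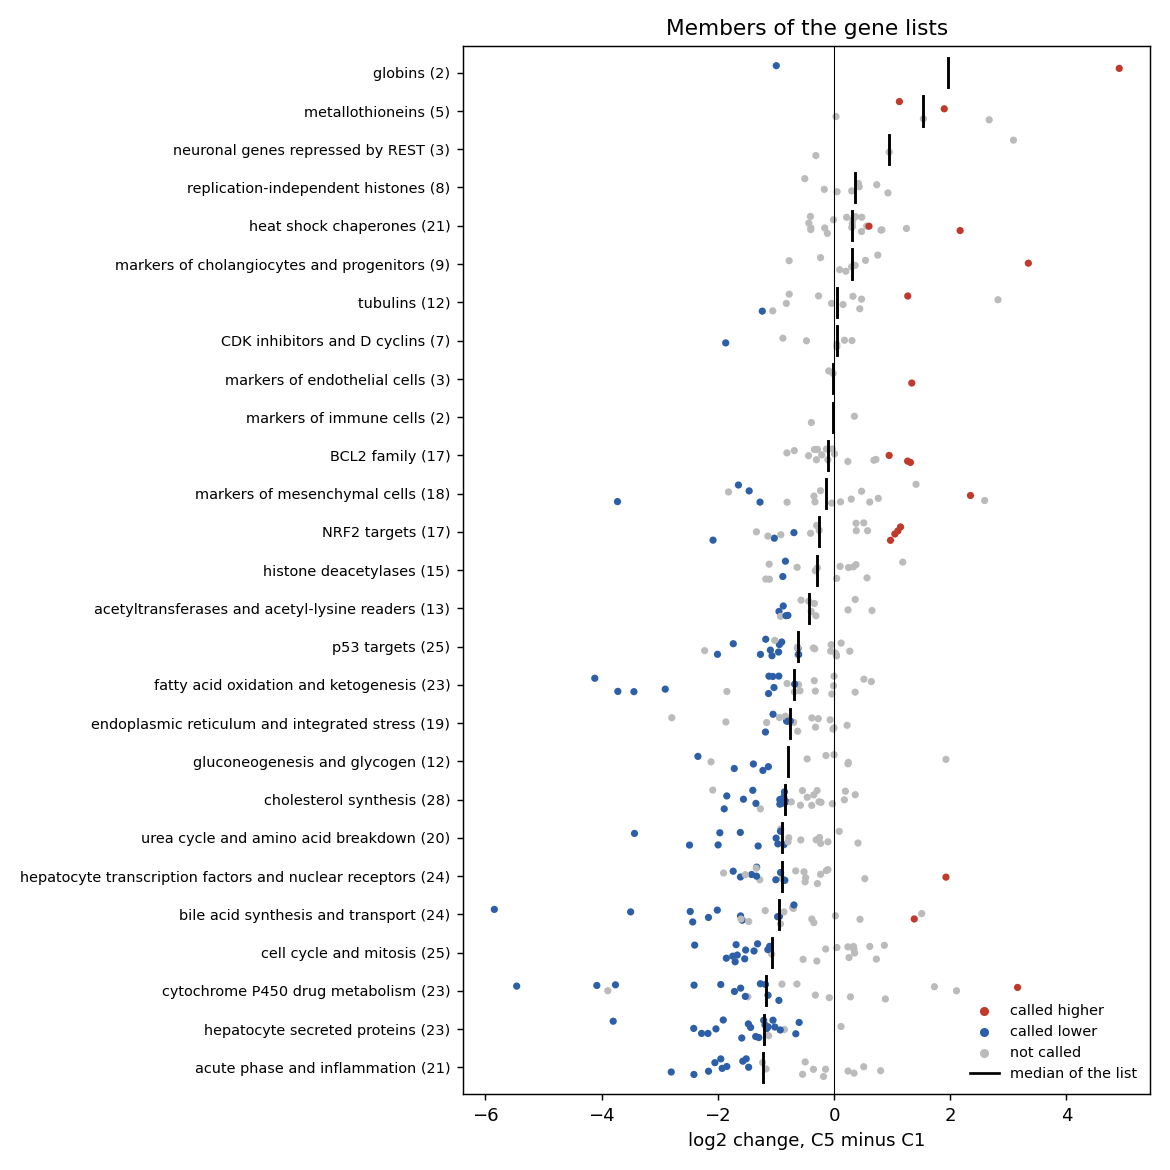
Each row is 1 of the 27 gene lists with its number of features tested, each point a feature at its log2 change from C1 to C5, and the black bar the median of the list. Liver lists and the acute phase list lie mostly left of 0, whereas metallothioneins lie right of it.

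The list of acute phase and inflammation genes had the lowest median of the lists, -1.23. Of its 21 features 10 were called (47.6%, against 16.2% of all features), all of them lower. LBP, which carries bacterial lipopolysaccharide, had 1989, 1667 and 1209.6 CPM at C1 and 261, 235 and 203 CPM at C5 (log2 change -2.80, SE 0.28, edgeR adjusted p = 3.78e-07). The chemokine gene CXCL2 had 746, 764 and 654 CPM at C1 and 198, 134 and 153 CPM at C5 by its more abundant probe (log2 change -2.16, SE 0.20, edgeR adjusted p = 9.92e-08). Both were lower in every C5 library. CRP was at -2.05 and the orosomucoid genes ORM1 and ORM2 were at -1.95 and -1.57. Of the serum amyloid genes SAA4 was called lower, at -2.41, while SAA1 (-0.50) and SAA2 (-0.35) did not pass the test. LCN2 (0.35), CXCL8 (-0.18) and CCL20 (0.80) did not pass it either. Without batch 3 the median of this list was -0.64, and of its 10 calls 6 were kept without batch 1, 10 without batch 2 and 8 without batch 3.

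The features with the largest rises were at or near 0 counts at C1. MYOZ2, a protein of the Z-disc of heart and slow muscle, had 0, 0.418 and 0 CPM at C1 and 27.8, 30.7 and 23.4 CPM at C5, at least 37.3-fold higher (edgeR adjusted p = 8.21e-08). HLA-DQB1, a chain of an antigen-presenting MHC class II molecule, had 0, 0.209 and 0.623 CPM at C1 and 18.5, 18.7 and 31.4 CPM at C5, at least 31.3-fold higher (edgeR adjusted p = 3.53e-07). Neither gene belongs to the usual transcripts of hepatocytes. The bounds were computed against 3 counts per library and were at least 20.4-fold for GPR50, an orphan receptor related to melatonin receptors, and at least 21.1-fold for MORN5. MYL1, a myosin light chain of skeletal muscle, had 0, 0.836 and 0 CPM at C1 and 15.3, 18.3 and 6.92 CPM at C5 (log2 change 5.32, SE 0.91, edgeR adjusted p = 2.42e-04). SERPINB2, an inhibitor of plasminogen activators, had 0.211, 1.46 and 0.311 CPM at C1 and 35.5, 19 and 26.6 CPM at C5 (log2 change 5.21, SE 0.73, edgeR adjusted p = 2.59e-05). With the probes given here, every C5 library lay above every C1 library. A second tested probe for HLA-DQB1 had 0, 0.627 and 0 CPM at C1 and 0.545, 1.4 and 3.99 CPM at C5, overlapped between the groups and was not called (edgeR adjusted p = 0.128).

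Other large rises had a measurable start. SUN3, a nuclear envelope protein known from the testis, had 3.81, 2.93 and 2.18 CPM at C1 and 40.9, 48 and 75.8 CPM at C5 (log2 change 4.17, SE 0.38, edgeR adjusted p = 9.92e-08), and C15orf48, a small mitochondrial protein, had 3.17, 0.627 and 1.87 CPM at C1 and 37.6, 40.5 and 51.4 CPM at C5 (log2 change 4.49, SE 0.51, edgeR adjusted p = 2.14e-06). HBG1, the fetal gamma globin, had 0, 2.09 and 1.56 CPM at C1 and 29.5, 28.1 and 52.4 CPM at C5 (log2 change 4.91, SE 0.58, edgeR adjusted p = 3.40e-06). Its copy HBG2 is almost identical, so the probe may count both. Of the other tested globin, CYGB (cytoglobin, of stellate cells and fibroblasts), the level fell (log2 change -0.99, SE 0.19, edgeR adjusted p = 9.36e-04), a call that was lost without batch 1 (adjusted p = 0.0702), and 12 of 14 globin features were at or under 3 counts in every library of both groups. C7orf69, CASC1 and LGSN completed the 12 largest rises, with log2 changes of 4.73, 4.37 and 4.11.

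**Figure D3:**
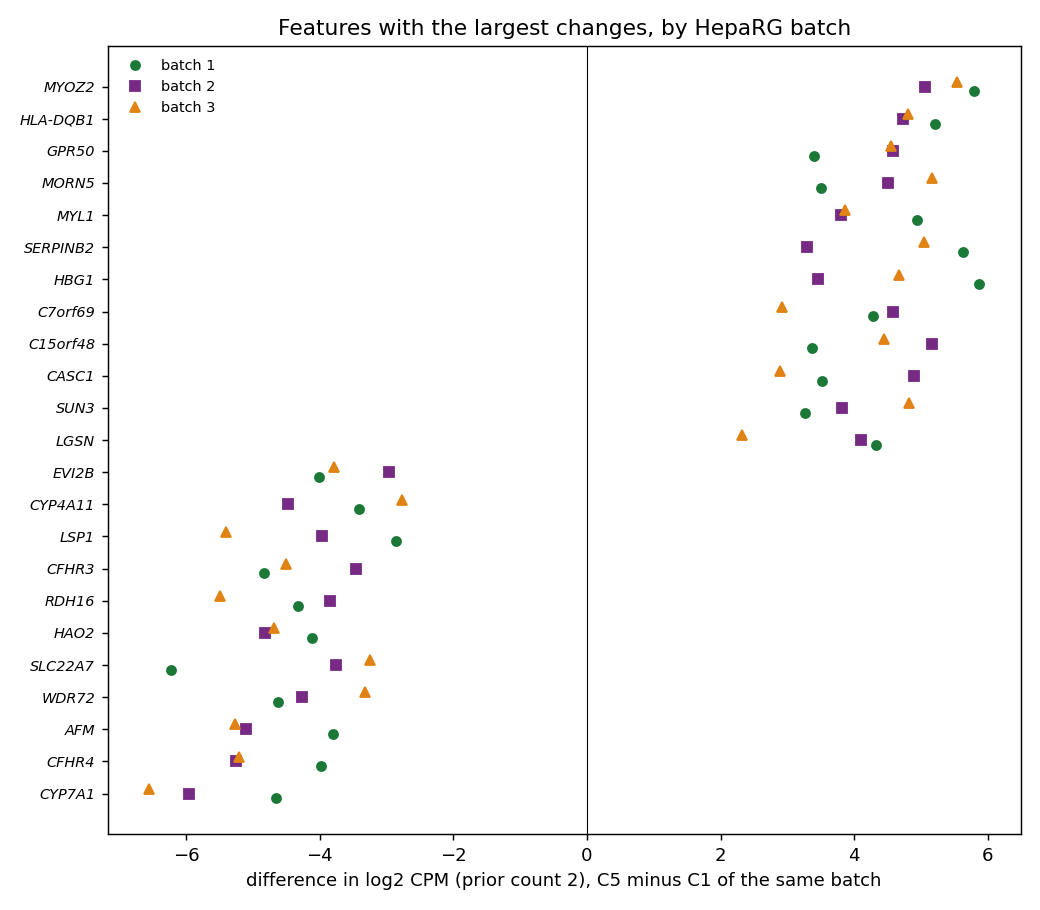
The 12 features with the largest rises and 11 of the 12 with the largest falls are shown as the difference in log2 CPM between C5 and C1 of the same HepaRG batch, 1 symbol per batch. Only features with the same direction in all 3 batches could be drawn, so their place on 1 side of 0 follows from the choice.

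Several abundant features rose by less. RPL26, a protein of the large ribosomal subunit, had 1472, 1407 and 1304 CPM at C1 and 2354, 2922 and 2486 CPM at C5 (log2 change 0.89, SE 0.14, edgeR adjusted p = 1.04e-04), and IL13RA2, a decoy receptor for interleukin 13, had 1218, 1239 and 939.9 CPM at C1 and 2019, 2078 and 1713 CPM at C5 (log2 change 0.77, SE 0.15, edgeR adjusted p = 6.93e-04). PEG10, an imprinted gene derived from a retrotransposon, had 2464, 2985 and 2438 CPM at C1 and 4462, 4319 and 3912 CPM at C5 (log2 change 0.69, SE 0.19, edgeR adjusted p = 0.0162). The groups did not overlap for these genes. PEG10, GAGE12E (0.64) and MALAT1 (0.66) were close to the limit of the call. They lost it in 6, 8 and 7 of 15 alternative analyses, among them those without batch 1 or batch 3, with edgeR adjusted p up to 0.192, 0.218 and 0.209. GAGE12E belongs to a family of near-identical copies, and its reads may stem from several of them.

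The remaining large falls came from varied functions. HAO2, a peroxisomal hydroxyacid oxidase, had 694, 629 and 497 CPM at C1 and 39.5, 21.8 and 18.9 CPM at C5 (log2 change -4.51, SE 0.33, edgeR adjusted p = 4.92e-09). AFM (afamin), a plasma carrier of vitamin E, had 67.4, 81.7 and 90.9 CPM at C1 and 4.36, 1.87 and 1.86 CPM at C5 (log2 change -4.89, SE 0.31, edgeR adjusted p = 1.41e-09), and SLC22A7, an organic anion carrier, had 38.1, 25.5 and 19.6 CPM at C1 and 0, 1.4 and 1.6 CPM at C5 (log2 change -4.73, SE 0.53, edgeR adjusted p = 1.43e-06). The retinol dehydrogenase RDH16 was at -4.43 and WDR72, which is needed for tooth enamel, at -4.85. CFHR4 and CFHR3, relatives of complement factor H, fell at least 37.0-fold and by 4.33 on the log2 scale. LSP1 and EVI2B, genes best known from leukocytes, had 38.9, 40.3 and 77.9 CPM at C1 and 4.91, 2.11 and 1.33 CPM at C5 and 25.4, 16.3 and 10.3 CPM at C1 and 1.09, 1.64 and 0.266 CPM at C5, with log2 changes of -4.23 and -4.06. The immune markers PTPRC, at 0 counts, and CD68 (-0.39) and CD14 (0.35), neither called, are the values beside them, and their part in these falls was not tested.

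Proliferation genes fell in part, with 12 of 25 features called (48.0%, against 16.2% of all features), all of them lower (median -1.07). Of these calls 7 were kept without batch 1, 10 without batch 2 and 11 without batch 3. MKI67, the Ki-67 antigen of dividing cells, had 347, 378 and 320.4 CPM at C1 and 112, 82.6 and 166 CPM at C5 (log2 change -1.54, SE 0.23, edgeR adjusted p = 4.91e-05). TYMS (thymidylate synthase), which makes a DNA precursor, had 1357, 1237 and 1153 CPM at C1 and 400.1, 333 and 448 CPM at C5 (log2 change -1.67, SE 0.16, edgeR adjusted p = 2.52e-07). AURKA and PLK1, kinases of mitosis, were at -2.40 and -1.85. All 4 were called, with the C5 values below all C1 values. The replication licensing genes had both signs and were not called, with MCM6 at 0.73, MCM3 at 0.35, MCM5 at 0.33, MCM4 at 0.26, MCM2 at -0.30 and MCM7 at -0.53. CDKN1A, the cell cycle inhibitor p21, had a mean of 3.67 counts at C1 and 4 at C5 by its probe and was not tested. CDKN2C, another such inhibitor, was lower at C5 (log2 change -1.86, SE 0.43, edgeR adjusted p = 0.00409). Of the p53 targets, 12 of 25 features were called (48.0%, against 16.2% of all features), all of them lower (median -0.62). MDM2, the ligase that limits p53, fell by all 3 probes, at -0.95, -1.09 and -1.07. Of these 12 calls, 5 were kept when batch 1 was left out and 7 without batch 3.

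Stress genes did not move in 1 direction. Metallothioneins, small zinc-binding proteins, rose in 2 of 5 features tested (40.0% called, against 16.2% of all features, median 1.54). MT2A had 111, 108 and 81.6 CPM at C1 and 265, 473 and 382 CPM at C5 (log2 change 1.90, SE 0.22, edgeR adjusted p = 2.25e-06). MT1M had 37.6, 29.5 and 28.3 CPM at C1 and 70.1, 76.5 and 62 CPM at C5 (log2 change 1.13, SE 0.23, edgeR adjusted p = 0.00132). Every C5 library lay above every C1 library for both. Among NRF2 targets, which answer to oxidative stress, 4 of 17 features rose and 3 fell (41.2% called, against 16.2% of all features, median -0.26). PRDX1 (log2 change 1.10, SE 0.20, edgeR adjusted p = 5.77e-04), SRXN1 (1.05) and AKR1C2 (0.97) were among the higher, while OSGIN1 (log2 change -2.08, SE 0.38, edgeR adjusted p = 5.00e-04) and both probes for GCLM (-1.03 and -0.69) were lower. In the list of endoplasmic reticulum stress, 5 of 19 were called (26.3%, against 16.2% of all features), all of them lower (median -0.75). HSPA5, the main chaperone of that compartment, was at -1.05. Of these 5 calls, 3 were kept without batch 1, 4 without batch 2 and 2 without batch 3. Of 21 heat shock features, HSPA2 (log2 change 2.17, SE 0.67, edgeR adjusted p = 0.0282) and HSPB8 (0.60) were called higher, but neither was called once any 1 batch was left out. These 2 calls were 9.52% of the list, under the 16.2% of all features tested. In the BCL2 family 3 of 17 features were called (17.6%, against 16.2% of all features tested). They were probes for the death-promoting genes BMF (log2 change 1.32, SE 0.34, edgeR adjusted p = 0.00823) and BCL2L11 (BIM, called by 2 of 4 tested probes at 1.27 and 0.95), all higher. Without batch 1, 0 of these 3 calls were kept. Of the 17 features, 7 had a positive change and 10 a negative one (median -0.11). The death-promoting genes BOK (-0.81), BAX (-0.44) and BID (-0.68 and -0.21) had the other sign and were not called.

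Of 15 features for histone deacetylases, the targets of the chemical, 2 were called (13.3%, against 16.2% of all features tested), both lower, with a median log2 change of -0.29. They were 2 of the 4 probes tested for HDAC6, the cytoplasmic deacetylase of tubulin, and 1 of them was not called without batch 1 or without batch 3. The more abundant one had 751, 692 and 680.5 CPM at C1 and 448, 367 and 338 CPM at C5, without overlap (log2 change -0.88, SE 0.15, edgeR adjusted p = 2.44e-04). HDAC1, HDAC2 and HDAC3, the nuclear enzymes, were at -0.32, 0.57 and 0.38 and were not called. HDAC2 passed the threshold of the test (edgeR adjusted p = 0.00661), but its fold was under 1.5. Of 13 features for acetyltransferases and readers of acetyl-lysine, 4 were called (30.8%, against 16.2% of all), all of them lower (median -0.43). They were EP300 (-0.79), KAT5 (-0.83), KAT6B (-0.95) and KAT7 (-0.87). Only 1 of these 4 calls was kept without batch 1 and 1 without batch 3. Of 8 features for replication-independent histones edgeR called 0, with 3 at an unadjusted p under 0.05, and H1F0, a linker histone often raised by such inhibitors, had 11, 5.43 and 14.6 CPM at C1 and 21.5, 23.9 and 13 CPM at C5. Those values overlapped between groups (log2 change 0.93, SE 0.40, edgeR adjusted p = 0.116). Of 12 tubulin features 2 were called (16.7%, against 16.2% of all), TUBA1B lower (log2 change -1.23, SE 0.25, edgeR adjusted p = 0.00141) and TUBA1A higher (log2 change 1.27, SE 0.43, edgeR adjusted p = 0.0456). Of these 2 calls, 0 were kept without batch 1, 1 without batch 2 and 1 without batch 3. The neuronal genes that REST silences could hardly be assessed, since 3 of 36 features passed the filter. SCG2, CPLX1 and SYT1 were at 0.95, 3.09 and -0.31, edgeR called 0 of them, and 1 had an unadjusted p under 0.05.

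Markers of other liver cell types were mixed. Of 9 features tested for bile duct and progenitor cells, 1 was called (11.1%, against 16.2% of all features). It was SPP1 (osteopontin), a secreted matrix protein, with 4.02, 5.64 and 2.49 CPM at C1 and 36.3, 48.7 and 42 CPM at C5 (log2 change 3.34, SE 0.35, edgeR adjusted p = 5.87e-07). The summed level of that list was 273 to 318 CPM at C1 and 365 to 409 CPM at C5. SOX9 was at 0.75 (edgeR adjusted p = 0.062) and the keratin KRT19 at 0.10 and 0.36, none called. In the mesenchymal list, 4 of 18 features fell and 1 rose (27.8% called, against 16.2% of all features, median -0.14). Of these 5 calls 3 were kept without batch 1, 5 without batch 2 and 3 without batch 3. The fibrillar collagens parted, with COL3A1 at 22.6, 24 and 19.6 CPM at C1 and 0.545, 0.468 and 3.99 CPM at C5 (log2 change -3.73, SE 0.55, edgeR adjusted p = 5.17e-05) and COL1A1 at 2.33, 4.18 and 5.92 CPM at C1 and 25.4, 25.3 and 11.7 CPM at C5 (log2 change 2.35, SE 0.41, edgeR adjusted p = 3.43e-04). The 2 groups did not overlap for either gene. Of 3 endothelial features tested, 1 was called (33.3%, against 16.2% of all features). It was ESAM, higher at C5 (log2 change 1.34, SE 0.40, edgeR adjusted p = 0.0238), but not called once any 1 batch was left out. KDR lay at -0.02. Both immune features tested, CD14 and CD68, were not called.

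Probes of the same gene mostly moved together. Among 281 symbols with several tested probes and at least 1 call, all probes were called in the same direction in 73 and some in 181, always with the same sign. In 25 an uncalled probe had the other sign. Called probes had opposite directions in DLC1 and DMKN. DLC1, a GTPase-activating protein, fell by 1 probe (log2 change -1.59, SE 0.32, edgeR adjusted p = 0.00107) and rose by another (log2 change 1.33, SE 0.27, edgeR adjusted p = 0.0014). DMKN (dermokine) fell by 2 probes (-0.97 and -1.03) and rose by another of low count (1.95). The positions of the probes on the transcripts were not analysed here.

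The intermediate concentrations show where the changes lay. These comparisons share libraries with the main one and are given side by side only. From 0.03963 µM (C4) to C5, 64 features were called higher (0.488%) and 272 lower (2.08%), 2.56% in all. From C1 to C4, 152 were called higher (1.16%) and 184 lower (1.4%). MYOZ2 had means of 0.139, 0.343 and 0.25 CPM from C1 to C3, then 11.5 ± 3.53 CPM at C4 (SD, n = 3) and 27.3 ± 3.65 CPM at C5 (SD, n = 3). Its change was 5.94 (SE 0.66, edgeR adjusted p = 3.33e-05) from C1 to C4 and 1.25 (SE 0.40, edgeR adjusted p = 0.119) from C4 to C5. SPP1 was at 2.84 (SE 0.35, edgeR adjusted p = 5.64e-05) in the first of these steps and at 0.51 (SE 0.30, edgeR adjusted p = 0.511) in the second. SLC22A7, by the probe named above, was at -0.39 (SE 0.38, edgeR adjusted p = 0.708) up to C4 and -4.34 (SE 0.53, edgeR adjusted p = 4.18e-05) from C4 to C5. A second probe for SLC22A7 divided its fall otherwise. It was at -1.14 (SE 0.51, edgeR adjusted p = 0.285) up to C4 and -2.62 (SE 0.64, edgeR adjusted p = 0.0262) from C4 to C5. ARG1 was at 0.21 (SE 0.26, edgeR adjusted p = 0.782) and then -2.70 (SE 0.29, edgeR adjusted p = 1.96e-05). HAO2 changed over both steps, by -1.45 (SE 0.28, edgeR adjusted p = 0.00655) and -3.06 (SE 0.31, edgeR adjusted p = 1.43e-05). Of the 12 largest falls, 11 were called from C1 to C4 and 10 from C4 to C5. Of the 12 largest rises, 11 were called from C1 to C4 and 3 from C4 to C5 (C15orf48, CASC1 and SUN3). The median log2 change from C1 to C4 was -2.14 for these falls and 3.68 for these rises. These features were chosen on the same C5 libraries. Without batch 3 the numbers called between C4 and C5 were 7 higher and 64 lower, and without batch 1 they were 10 and 99.

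**Figure D4:**
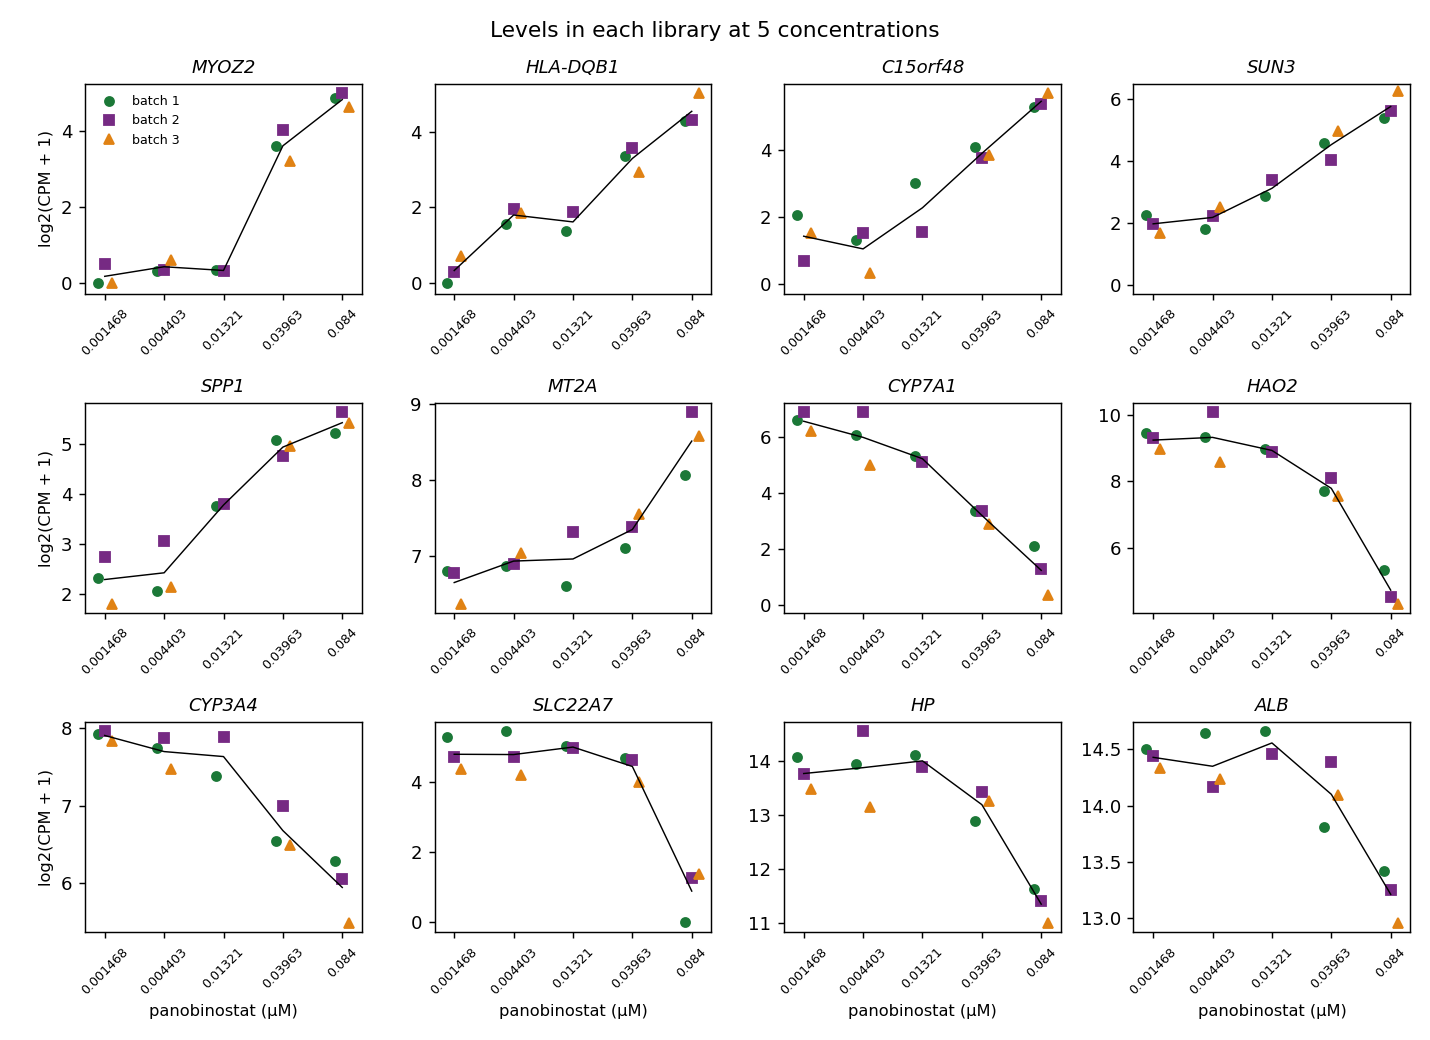
Levels of 12 genes are plotted as log2(CPM + 1) in each library against the 5 panobinostat concentrations in µM, which are spaced evenly, with 1 symbol per HepaRG batch and a line through the means of the log2 values. Concentration 0.01321 µM has 2 libraries, without batch 3. MYOZ2 stays near 0 up to that concentration. By the probe drawn, SLC22A7 is near 0 only at the last one, and a second tested probe is not shown.

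Panobinostat was set against vorinostat, which also carries a hydroxamate group, and against valproic acid, a short branched fatty acid. The concentrations were not matched. Vorinostat ran from 0.404778 to 23.5 µM, and the unit of the valproic acid concentrations is open. The differences are therefore between the concentration ranges of the chemicals, and the chemical and its range cannot be told apart. Vorinostat libraries also lay on another plate. The change from C1 to C5 differed from that of vorinostat in 2159 of 13831 features (15.6%), with 1668 (12.1%) more positive under panobinostat and 491 (3.55%) more negative. Without batch 1 these numbers were 908 and 164, and without batch 3 they were 1052 and 233. It differed from that of valproic acid in 5 of 13894 features (0.036%), of which 2 were more positive (0.0144%) and 3 more negative (0.0216%), and 669 features had an unadjusted p under 0.05. S100A8, a calcium-binding protein of inflammation, had 61.7, 71.7 and 52 CPM at C1 and 565, 669 and 525 CPM at C5, and its rise was larger than under valproic acid by a log2 difference of 2.49 (SE 0.31, edgeR adjusted p = 4.14e-05). PLIN4, a coat protein of lipid droplets, fell under panobinostat (log2 change -3.06, SE 0.73, edgeR adjusted p = 0.00523), and its mean under valproic acid was 6.9 CPM at C1 and 15.5 CPM at C5. The other 3 features were S100A2, EMP3 and CASC1. Without batch 1 no feature was called in this comparison, so a small number of calls does not show that the changes were alike.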

How the data were processed

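The table holds counts of reads per probe, deposited by the authors without normalization, for 118 libraries of HepaRG cells. The submitters' processing notes name bcl2fastq 2.20.422, fastp 0.23.2, STAR 2.7.10b and DESeq2 1.38.0 without a role, and the genome build is not given in the sources used here. Of 22069 rows, 22068 were used, since 1 row lacked values in part of the libraries. Groups and HepaRG batches came from the sample labels. The comparison, the gene lists and the genes named were chosen with earlier results of these data known.

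In R 4.3.3, features that passed filterByExpr in the 14 panobinostat libraries were fitted with edgeR 4.0.16 (TMM factors, quasi-likelihood F test, group means, no batch term, Benjamini-Hochberg adjustment). CPM values use the TMM-scaled totals, and each SE was derived from the log2 change and its F statistic, as their size over the root of F. A group with at most 3 counts in each of its libraries was treated as at the floor and its fold given as a bound against 3 counts per library, which covers counting error only. Differences between chemicals were fitted in the same way with both chemicals. Named genes were the 12 largest rises and falls with a mean count of at least 50 and the 6 most abundant called in each direction. Both sets were drawn only from called features with the same direction in all 3 batches. Up to 4 members per list with the largest change were also named, and other members were added for their role after their values were seen. The labels name the batch of each library, and the 3 batches are in each panobinostat group except the middle concentration, which lacks batch 3, so the numbers pair the libraries. Deviations from group means had a median correlation of 0.05 within batches and -0.02 between them, and C1 and C5 of a batch correlated by 0.06, 0.04 and 0.04. The batch as a block, DESeq2 1.42.0, other filters and left-out libraries were alternatives. The fit was tested on simulated data. Motif letters were searched in RefSeq promoters. Some genes that the rule names are not reported here. The p-values measure the spread between libraries of 3 batches of 1 line.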

Additional observations from a re-analysis of the deposited data

Results flagged for a closer look

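The change from the lowest to the highest concentration differed between chemicals by the test of that difference in the following features. Against vorinostat, the log2 difference (panobinostat minus vorinostat) was 8.72 for NR1I3, a xenobiotic receptor, 8.66 for POLE2, a DNA polymerase subunit, and 8.59 for PLCH1, a phospholipase. These 3 were at 0 CPM in the vorinostat C5 libraries, so the fitted values depend on the prior count and are no bounds. It was -7.48 for MT1A, a metallothionein at 0 CPM in the vorinostat C1 libraries, -4.46 for the chemokine CCL20 and -3.95 for SCG2, a protein of secretory granules. Against valproic acid it was -1.18 for EMP3, -1.84 for S100A2 and -4.21 for PLIN4, and 2.49 for S100A8 and 3.29 for CASC1. The concentrations were not matched, and the vorinostat libraries lay on another plate, so chemical, range and plate cannot be told apart there.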

How the results depend on the processing

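With the batch as a replicate block, 940 features were called higher and 1305 lower at C5 against C1, of which 865 and 1225 were among the 887 and 1240 reported, and of 163 calls in the gene lists 162 were kept with the block, 100 without batch 1, 141 without batch 2 and 109 without batch 3. It gave 78 higher and 317 lower for C5 against C4, 1716 and 510 for the difference from vorinostat, and 3 and 4 for that from valproic acid. A fold of at least 2 left 495 and 810 calls. Fits of the compared groups alone gave 1336 higher for C5 against C1, 203 higher for C5 against C4, 886 lower against vorinostat, and 21 higher and 15 lower against valproic acid, where no filter on low counts gave 10 and 7. When libraries were left out, the counts ran from 338 to 925 higher and 594 to 1084 lower for C5 against C1, from 7 to 57 and 64 to 232 for C5 against C4, from 908 to 1568 and 164 to 508 against vorinostat, and from 0 to 2 and 0 to 2 against valproic acid. The cause was not tested. Of 36 leading named features, 31 were called under all 15 alternatives, and 0 changed direction. These features were chosen on the same libraries for a large change or abundance and for the same direction in all 3 batches. Their stable direction is therefore largely fixed by the choice and is not independent support. The 3 libraries per group and the features at the floor (7355 at C1 and 7207 at C5) limit what could be detected.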

Other observations

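Further gene families were chosen after their values were seen and are given as counts and medians. In the complement factor H family 6 of 7 features tested were called lower (median log2 change -1.90), and in the SLC22 carriers 7 of 15 were (median -2.22), against -0.0018 over all features, of which 6.77% were called higher and 9.46% lower. Reads of the factor H relatives may be shared between near-identical copies. The UDP-glucuronosyltransferases, which conjugate drugs, had 6 of 20 features lower and 1 higher (median -0.91). The higher one was UGT2B11, at 3.40, and the 2 probes for UGT1A1 were not called, at 0.09 and 0.05. Of 12 features for S100 proteins 3 rose and 2 fell (median -0.22), and S100A9, the partner of S100A8, had a log2 change of 2.62. Of 11 HLA features 3 rose and 1 fell (median 0.56). HLA-E, a class I molecule, was at 1.17 and HLA-DMB, of the class II pathway, at 2.77.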
